A study of Mus musculus with 8 samples.

Results

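The collagen gene family was taken as every gene of the deposited table whose name is Col, a number, the letter a and a second number. This rule found 44 genes among the 25766 entries of the table, and it used no measured value. The genes were grouped by textbook class: 11 fibrillar, 8 basement membrane, 6 beaded filament, 9 fibril-associated (FACIT), 4 transmembrane and 6 other collagens. All 44 have an entry in GENCODE M21 for GRCm38, each as a protein-coding gene under the same symbol.

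The tumors grew under the skin of C57BL/6J mice from MC38-OVA cells, a murine colon cancer line engineered to make ovalbumin, a model antigen. The genotype of the injected cells was shNT in 4 tumors, the controls, and shXBP1 in the other 4, a hairpin against Xbp1, the gene of a transcription factor that drives part of the unfolded protein response. The hosts were female, one protocol field writes their strain as C57BL/5J, and no age, hairpin sequence, number of clones or day of collection is stated. Only the injected cells carried a hairpin, the host kept its own fibroblasts, vessels and leukocytes, and whole tumors were used, so each library mixes tumor and host RNA. Whether the tumors of a group grew in separate mice is not said in the labels, so the p-values rest on the spread between these samples alone, which may in part be technical.

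Collagens are the main structural proteins of the extracellular matrix. Their chains wind into a triple helix in the endoplasmic reticulum, after hydroxylation of proline and lysine, and are trimmed, assembled and cross-linked outside the cell. Types I, III and V build the fibrils of connective tissue and tumor stroma, type IV builds the sheet under epithelium and around vessels, and type VI forms beaded microfibrils beside cells. In tumors fibroblasts are known as the major source of fibrillar chains, and cells of vessel walls as a source of type IV chains.

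Values of a tumor are given as FPKM, the authors' counts scaled to gene length and library size, which allows levels of different genes to be compared. Fold changes are on the log2 scale, shXBP1 minus shNT, from edgeR's quasi-likelihood test on the counts, with a standard error (SE) and a p adjusted by Benjamini-Hochberg over the 14907 genes tested, and a gene was said to rise or fall at an adjusted p below 0.05. Total counts lay between 29070605 and 36012997 per tumor. Xbp1 stood at 40.7, 42.7, 43.1 and 44.9 FPKM in the shNT tumors (1 to 4) against 32.5, 31.7, 31.2 and 25.8 FPKM in the shXBP1 tumors (1 to 4) and fell (log2 fold change -0.51, SE 0.10, adjusted p = 0.00255), with no overlap between the groups. Across the family shNT tumor 1 stood low: it was the lowest of its group in 21 of the 32 tested collagen genes, and shXBP1 tumor 2 was the lowest of its group in 15. The same counts over all tested genes were not taken, so these are not shown to be particular to the collagens. Results that change when 1 tumor is left out are given with and without it. The label calls the cells colon adenocarcinoma, yet the epithelial markers Krt8, Krt18, Krt20 and Epcam were near 0 (0 to 0.243 and 0 to 0.295 CPM, the counts divided by scaled library size, for Krt8 in shNT and shXBP1, and at most 0.664 CPM for Epcam in any tumor), and most of the epithelial list's sum, 5.61 to 7.88 CPM in shNT and 7.55 to 11.1 CPM in shXBP1, was Cdh1. None of the 3 epithelial markers tested passed with edgeR, 1 was higher and 1 lower at an unadjusted p below 0.05, and 1 passed with DESeq2 and none with limma voom.

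Of the 44 collagen genes, 32 passed the filter on low counts, 8 of them rose, 2 fell and 22 did not pass the test. That is 31.2% of the tested collagens against 30.0% of all tested genes, so the share called lay near that of the whole table. Genes higher in shXBP1 made up 16.9% of all tested genes and genes lower 13.1%. The median log2 fold change was 0.15 over the tested collagens and -0.01 over all genes. Groups of tumors did not overlap in CPM for 12 of the 32, 10 higher and 2 lower, against 30.2% of all tested genes (16.6% higher and 13.6% lower). Col3a1, the collagen with the highest mean FPKM, had the largest log2 fold change among the 8 that rose. All 27 tested collagens with a fold change in the authors' deposited table had the same sign there. Those fold changes come from the same tumors and groups, so this is no independent check.

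**Figure D1:**
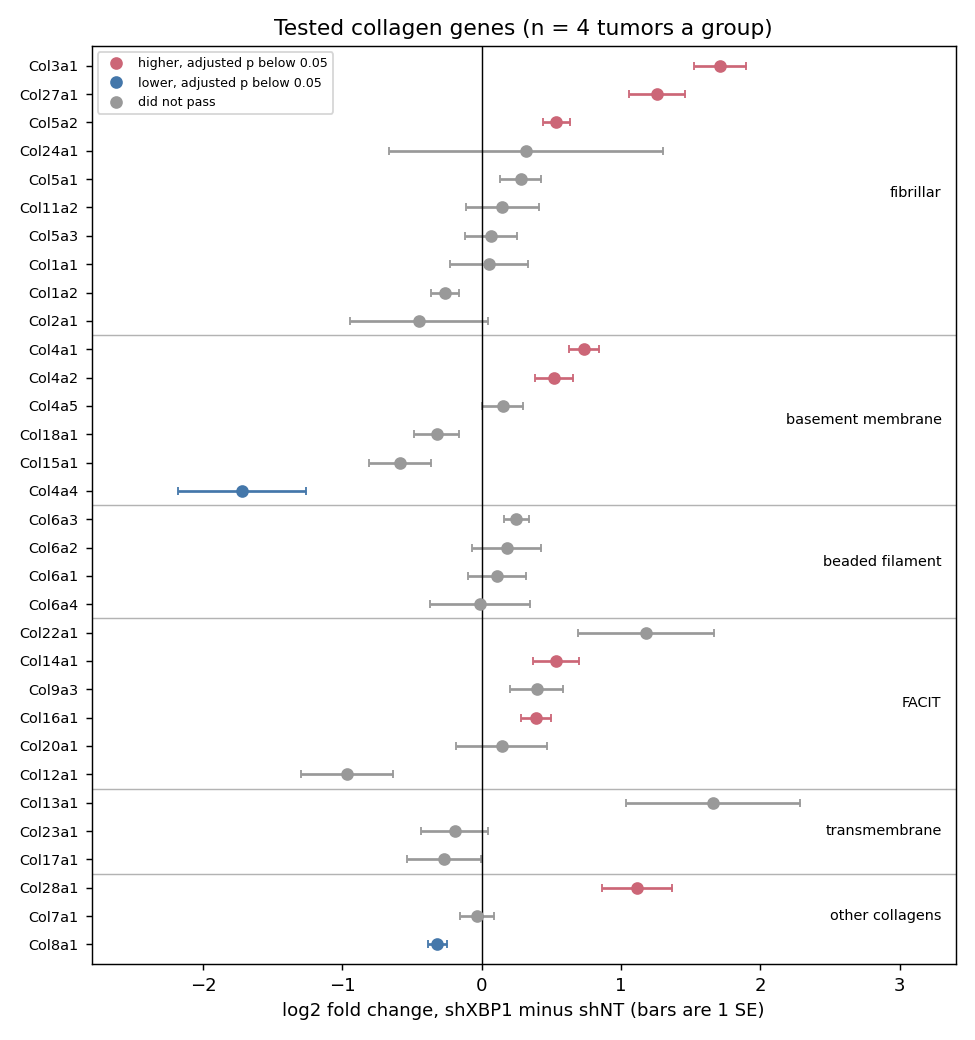
Log2 fold change (x axis, shXBP1 minus shNT) of the 32 tested collagen genes, listed by class on the y axis; points are edgeR estimates from 4 tumors a group and bars are 1 SE. The 8 genes that rose are red, the 2 that fell are blue and the 22 that did not pass are grey, with Col3a1 at 1.71 and Col4a4 at -1.72.

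Col3a1 encodes the chain of type III collagen, a fibril former of skin, vessel walls and granulation tissue. Col3a1 stood at 155, 285, 261 and 303 FPKM in the shNT tumors (1 to 4) against 831, 926, 777 and 738 FPKM in the shXBP1 tumors (1 to 4). Every shXBP1 tumor lay above every shNT tumor, and shNT tumor 1 was the lowest of all. The rise was 3.27-fold (log2 fold change 1.71, SE 0.19, adjusted p = 0.000132), and leaving out any 1 tumor gave log2 fold changes between 1.54 and 1.82. Beside this rise, markers of fibroblasts, the main makers of this chain in connective tissue, summed to 657 to 852 CPM over 10 genes in shNT and 1542.5 to 2274 CPM in shXBP1. The largest part was Dcn, with means of 305 CPM in shNT and 1041 CPM in shXBP1. Of the 9 markers tested 7 rose and 1 fell (88.9% called, against 30.0% of all tested genes). Their part in the result was not tested. In whole tumors, more cells of a type and more RNA per cell cannot be told apart, for this gene and for those that follow.

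Type I collagen, the most abundant fibril former of many tissues, is a heterotrimer of Col1a1 and Col1a2 chains, and neither gene passed the test. Col1a1 stood at 13.7, 20.7, 26.1 and 24.2 FPKM in the shNT tumors (1 to 4) against 23.6, 13.9, 17.8 and 33.8 FPKM in the shXBP1 tumors (1 to 4). The ranges overlapped almost wholly, with the highest and the lowest but one value both on the shXBP1 side (log2 fold change 0.05, SE 0.28, adjusted p = 0.911). Col1a2 stood at 67.1, 82.8, 79.7 and 87.9 FPKM in the shNT tumors (1 to 4) against 66.3, 57.5, 63.9 and 77.4 FPKM in the shXBP1 tumors (1 to 4). Its groups overlapped too, through shXBP1 tumor 4 and shNT tumor 1 (log2 fold change -0.26, SE 0.10, adjusted p = 0.0606). Without shNT tumor 1 the adjusted p of Col1a2 was 0.0281, without shXBP1 tumor 4 it was 0.0300, and with DESeq2 it was 0.0347, each time lower in shXBP1.

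Type V chains co-assemble with type I and set the start of fibrils. Col5a2 stood at 11.9, 15.5, 16.0 and 15.4 FPKM in the shNT tumors (1 to 4) against 19.1, 20.6, 21.2 and 24.5 FPKM in the shXBP1 tumors (1 to 4). All shXBP1 tumors lay above all shNT tumors, and the gene rose 1.45-fold (log2 fold change 0.53, SE 0.10, adjusted p = 0.00159). Its partner Col5a1 stood at 17.9, 30.9, 24.7 and 27.8 FPKM in the shNT tumors (1 to 4) against 32.7, 25.1, 28.1 and 37.4 FPKM in the shXBP1 tumors (1 to 4). These groups overlapped and the test was not passed (log2 fold change 0.28, SE 0.15, adjusted p = 0.182). Col5a3, the less common type V chain, stood at 15.3, 27.6, 20.8 and 28.6 FPKM in the shNT tumors (1 to 4) against 27.2, 19.3, 22.5 and 27.7 FPKM in the shXBP1 tumors (1 to 4). Again shNT tumor 1 was lowest, the groups overlapped and the test was not passed (log2 fold change 0.06, SE 0.18, adjusted p = 0.824).

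Col27a1 encodes a fibrillar chain best known from cartilage. It stood at 0.483, 0.470, 0.745 and 0.772 FPKM in the shNT tumors (1 to 4) against 1.46, 1.77, 1.62 and 1.30 FPKM in the shXBP1 tumors (1 to 4). The groups did not overlap and the gene rose 2.39-fold (log2 fold change 1.26, SE 0.20, adjusted p = 0.000707), at a level far below that of Col3a1. The other fibrillar genes were low: Col2a1, Col11a2 and Col24a1 had means over all tumors of 0.0509, 0.566 and 0.0338 FPKM and did not pass, and Col11a1 had 20 counts in all and was not tested. The class held 3 rises and no fall among 10 tested by edgeR, with a median log2 fold change of 0.21. Thus 30.0% of the class were called, and 30.0% of all tested genes. Col1a2 was the 1 gene lower at an unadjusted p below 0.05 and with DESeq2, and none was lower with limma voom.

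**Figure D2:**
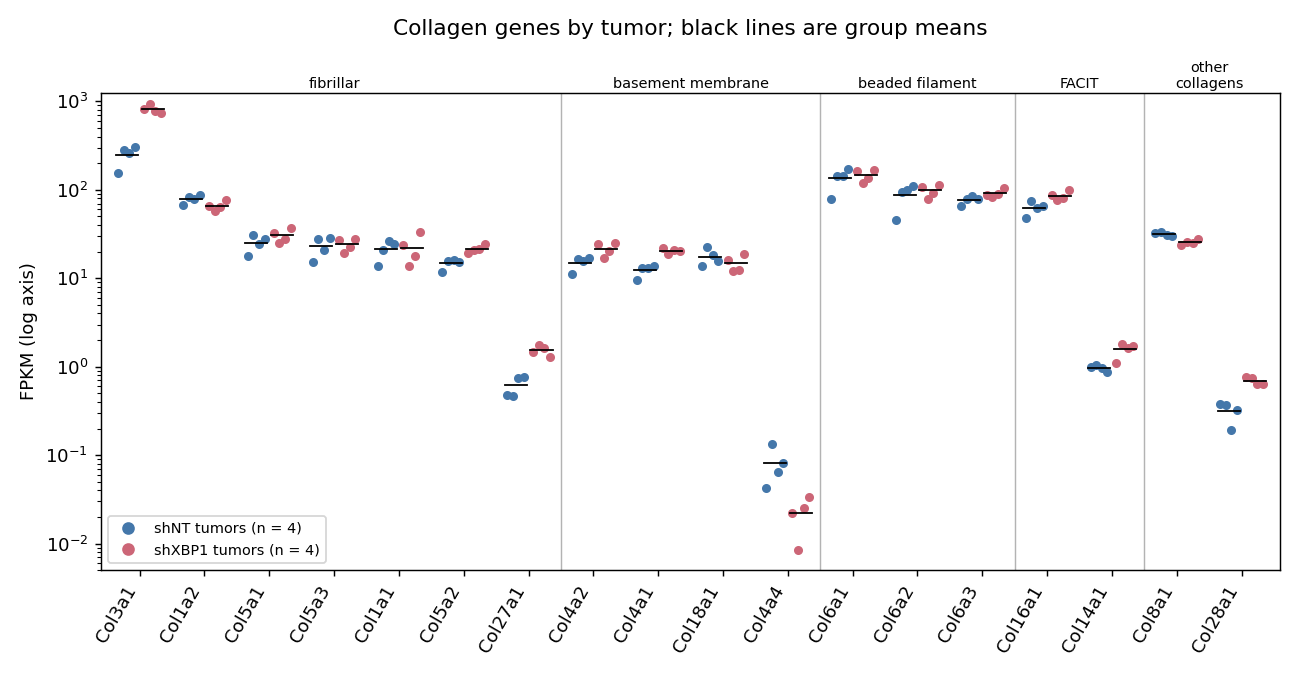
FPKM (y axis, log scale) in each of the 8 tumors for the collagen genes that passed the test or had a mean of at least 10 FPKM (x axis); each point is 1 tumor, coloured by group. The shXBP1 points of Col3a1 lie between 738 and 926 FPKM, all above the shNT points at 155 to 303 FPKM, while the points of Col1a1, Col6a1 and Col6a2 intermix.

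The 250 bases before the start of Col3a1, Col27a1 and Col8a1 are shown because these called genes, 2 that rose and 1 that fell, have a window that covers no annotated exon and holds a searched motif. The Col27a1 window lies within the span of the gene in GENCODE, and the others lie just before it. They are written 5′ to 3′ on the gene's strand from RefSeq, GRCm38.p6, at chr1:45311288-45311537 (plus strand), chr4:63215162-63215411 (plus strand) and chr16:57754738-57754987 (minus strand), with the motifs found in capitals.
Col3a1: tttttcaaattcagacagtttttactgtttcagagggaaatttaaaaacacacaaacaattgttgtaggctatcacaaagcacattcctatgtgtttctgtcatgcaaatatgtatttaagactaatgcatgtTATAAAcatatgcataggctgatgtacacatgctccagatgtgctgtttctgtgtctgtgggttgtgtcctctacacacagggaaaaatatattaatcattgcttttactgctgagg
Col27a1: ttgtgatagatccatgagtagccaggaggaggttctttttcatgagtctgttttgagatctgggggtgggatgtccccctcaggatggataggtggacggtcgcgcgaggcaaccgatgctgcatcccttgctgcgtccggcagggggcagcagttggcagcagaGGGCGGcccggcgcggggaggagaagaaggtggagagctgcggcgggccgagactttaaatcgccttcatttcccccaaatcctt
Col8a1: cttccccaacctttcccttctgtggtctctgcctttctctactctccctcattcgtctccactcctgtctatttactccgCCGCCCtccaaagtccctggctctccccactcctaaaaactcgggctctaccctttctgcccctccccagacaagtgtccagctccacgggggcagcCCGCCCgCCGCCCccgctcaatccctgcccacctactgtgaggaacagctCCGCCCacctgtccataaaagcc
The letters TATAAA stood 117 bases before the Col3a1 start, GGGCGG (a GC box) was found once before Col27a1 and 4 times before Col8a1, where the strand shown reads CCGCCC. Of the Col3a1 window 35.2% was G or C, and 5.0% of all 32851 RefSeq windows of this length had less, while Col27a1 and Col8a1 had 59.6% and 60.8%. RefSeq gave windows for 35 collagen genes, 38 windows in all. Searched on both strands, GGGCGG was in 22 of the 38 and in 32.7% of all windows, CCAAT in 13 and 33.8%, and TATAAA in 5 and 12.4%. TGACGTGG, a form of the unfolded protein response element, was in none of the 38 and in 0.563% of all windows. A match of letters is a description of these windows and not a binding site.

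Col4a1 and Col4a2 encode the chains of the common type IV network of basement membranes, and both rose. Col4a1 stood at 9.61, 12.9, 12.9 and 13.9 FPKM in the shNT tumors (1 to 4) against 22.1, 19.0, 20.7 and 20.5 FPKM in the shXBP1 tumors (1 to 4). The groups did not overlap, and the rise was 1.66-fold (log2 fold change 0.73, SE 0.11, adjusted p = 0.000435). Col4a2 stood at 11.1, 16.7, 15.7 and 16.8 FPKM in the shNT tumors (1 to 4) against 24.3, 16.8, 20.5 and 25.0 FPKM in the shXBP1 tumors (1 to 4). Here shXBP1 tumor 2 lay level with the highest shNT tumor, and the rise was 1.43-fold (log2 fold change 0.52, SE 0.14, adjusted p = 0.0154). Without shXBP1 tumor 1 the adjusted p of Col4a2 was 0.0523. Beside these genes the 8 endothelial markers summed to 49.1 to 62.2 CPM in shNT and 103 to 115 CPM in shXBP1. Of these 8 markers 5 rose (62.5% called, against 30.0% of all tested genes). Their part in the result was not tested. The genes lie head to head on chromosome 8 (Col4a1 at 11198423 to 11312826 on the minus strand, Col4a2 at 11312805 to 11449287 on the plus strand), overlapping by 22 bases, and no source used here says whether counting used the strand.

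Of the other 4 tested basement membrane genes 1 fell and 3 did not pass. Col4a4, a chain of the glomerular network, was near the limit of detection with 16, 47, 22 and 31 counts in the shNT tumors (1 to 4) and 9, 4, 11 and 14 in the shXBP1 tumors (1 to 4). It fell without overlap (log2 fold change -1.72, SE 0.46, adjusted p = 0.0144), and without shNT tumor 2 the adjusted p was 0.0616. Col18a1, the proteoglycan collagen from which endostatin is cut, stood at 13.7, 22.5, 18.1 and 15.8 FPKM in the shNT tumors (1 to 4) against 16.3, 11.9, 12.3 and 18.7 FPKM in the shXBP1 tumors (1 to 4). The groups overlapped (log2 fold change -0.32, SE 0.16, adjusted p = 0.156). Col15a1, a close relative of Col18a1 at the outer face of basement membranes, lay at 1.76 to 4.19 FPKM in shNT and 1.90 to 2.43 FPKM in shXBP1 (log2 fold change -0.59, SE 0.22, adjusted p = 0.0719). It passed when shNT tumor 1 was left out (log2 fold change -0.78, adjusted p = 0.00274) and with DESeq2 (adjusted p = 0.0292). Col4a5 did not pass (log2 fold change 0.15, SE 0.15, adjusted p = 0.475), and Col4a3 and Col4a6 had 54 and 12 counts in all and were not tested. Over the 6 tested genes of the class the median log2 fold change was -0.09, and 50.0% were called, against 30.0% of all tested genes.

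Type VI collagen, the microfibril former built from Col6a1, Col6a2 and a further chain such as Col6a3, was among the most abundant collagen RNAs and none of its 4 tested chains passed the test. Col6a1 stood at 79.7, 145, 144 and 172 FPKM in the shNT tumors (1 to 4) against 162, 119, 136 and 169 FPKM in the shXBP1 tumors (1 to 4). Apart from a low shNT tumor 1 the groups intermixed (log2 fold change 0.11, SE 0.21, adjusted p = 0.725). Col6a2 stood at 45.1, 94.0, 98.6 and 111 FPKM in the shNT tumors (1 to 4) against 109, 79.7, 93.1 and 115 FPKM in the shXBP1 tumors (1 to 4). It showed the same low shNT tumor 1 and overlapping groups (log2 fold change 0.18, SE 0.25, adjusted p = 0.628). Col6a3 stood at 66.3, 79.5, 84.9 and 79.0 FPKM in the shNT tumors (1 to 4) against 88.5, 82.7, 89.7 and 105 FPKM in the shXBP1 tumors (1 to 4). The groups overlapped slightly in FPKM and not in CPM, and the gene missed the threshold (log2 fold change 0.25, SE 0.09, adjusted p = 0.0555). Col6a3 passed with DESeq2 (adjusted p = 0.0216), upper quartile factors (0.0415), the stricter count filter (0.0277) and without shXBP1 tumor 2 (0.0490). Col6a4 did not pass (log2 fold change -0.01, SE 0.36, adjusted p = 0.979), and Col6a5 and Col6a6, with 31 and 3 counts in all, were not tested.

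Of the FACIT genes, whose products sit on the surface of fibrils, 2 of 6 tested rose with edgeR and none fell, with a median log2 fold change of 0.39. The share called was 33.3%, near the 30.0% of all tested genes. Col16a1 was the most abundant FACIT gene and stood at 48.3, 74.9, 62.5 and 65.4 FPKM in the shNT tumors (1 to 4) against 87.0, 76.0, 81.7 and 98.5 FPKM in the shXBP1 tumors (1 to 4). Its groups did not overlap, by a narrow margin between shNT tumor 2 and shXBP1 tumor 2, and the rise was 1.31-fold (log2 fold change 0.39, SE 0.11, adjusted p = 0.0162). Without shXBP1 tumor 1 the adjusted p was 0.0509. Col14a1, a fibril-spacing collagen of dense connective tissue, stood at 0.992, 1.04, 0.958 and 0.872 FPKM in the shNT tumors (1 to 4) against 1.09, 1.82, 1.63 and 1.72 FPKM in the shXBP1 tumors (1 to 4). All shXBP1 tumors lay above the shNT tumors, tumor 1 by little, and the gene rose 1.45-fold (log2 fold change 0.53, SE 0.16, adjusted p = 0.027). The adjusted p of Col14a1 missed the threshold without shNT tumor 1, 2 or 4 (0.0575, 0.0620 and 0.0566) and without shXBP1 tumor 2 or 3 (0.0818 and 0.0758).

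Col12a1, which binds type I fibrils, lay at 1.39 to 2.42 FPKM in shNT and 0.781 to 2.09 FPKM in shXBP1. Only shXBP1 tumor 4 reached the shNT range (log2 fold change -0.97, SE 0.33, adjusted p = 0.058). Without that tumor the log2 fold change was -1.42 (adjusted p = 2.5e-05), and Col12a1 also passed with DESeq2 (adjusted p = 0.0352) and limma voom (0.0144). Col22a1 (log2 fold change 1.18, SE 0.49, adjusted p = 0.0865), Col9a3 and Col20a1 did not pass. Col9a1 and Col19a1 had 0 counts in every tumor and Col9a2 had 2 counts in all.

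Among the other collagens, Col8a1, a short chain of the network under vascular endothelium, was the only collagen with a mean of at least 10 FPKM that fell with edgeR. Col8a1 stood at 32.9, 33.8, 30.9 and 30.2 FPKM in the shNT tumors (1 to 4) against 24.0, 25.7, 25.0 and 28.0 FPKM in the shXBP1 tumors (1 to 4). Every shXBP1 tumor lay below every shNT tumor, and the fall was 1.25-fold (log2 fold change -0.32, SE 0.07, adjusted p = 0.0046). The promoter window of Col8a1 is shown above. Col28a1, a collagen with von Willebrand domains known from peripheral nerve, stood at 0.383, 0.373, 0.191 and 0.324 FPKM in the shNT tumors (1 to 4) against 0.761, 0.747, 0.635 and 0.636 FPKM in the shXBP1 tumors (1 to 4). The groups did not overlap and the gene rose 2.17-fold (log2 fold change 1.12, SE 0.25, adjusted p = 0.00575) from a low level. Col7a1, the chain of anchoring fibrils below epidermis, lay at 7.79 to 13.01 FPKM in shNT and 8.81 to 9.91 FPKM in shXBP1 (log2 fold change -0.03, SE 0.12, adjusted p = 0.869). Col8a2 and Col10a1 had 37 and 27 counts in all and Col26a1 had 0 in every tumor, and none of them was tested. A count of 0 allows up to 3 counts in a library, for counting error only.

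The 3 tested transmembrane collagens, which cells hold at their surface, did not pass with edgeR. Col13a1 had groups that did not overlap, at 0 to 0.147 FPKM in shNT and 0.206 to 0.447 FPKM in shXBP1 (log2 fold change 1.66, SE 0.62, adjusted p = 0.0624). It was the only one of the 3 at an unadjusted p below 0.05, and it passed with DESeq2 (adjusted p = 0.033) and not with limma voom. Col17a1, the hemidesmosome collagen of epidermis, and Col23a1 had log2 fold changes of -0.27 and -0.20 with adjusted p of 0.475 and 0.581. Col25a1 had 2 counts in all.

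The summed FPKM of the 44 genes was 605, 967, 918 and 1012 for shNT (tumors 1 to 4) and 1554, 1515, 1430 and 1542 for shXBP1 (tumors 1 to 4). The groups did not overlap, with means of 875 ± 185 and 1510.4 ± 56.1 FPKM (SD, n = 4 each). Col3a1 made up 25.6, 29.5, 28.4 and 29.9% of the sum for shNT against 53.4, 61.1, 54.4 and 47.9% for shXBP1. Without Col3a1 the sums were 450, 682, 657 and 709 in shNT and 724, 589, 652 and 803 in shXBP1. These overlapped, so the groups lay apart in the sum only with Col3a1 counted. Beaded filament genes held 31.6 to 35.8% of the sum in shNT and 18.6 to 25.2% in shXBP1, and Col1a2 held 8.57 to 11.1% and 3.79 to 5.02%. These shares are descriptions with no test, and a share falls when another gene of the sum rises.

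**Figure D3:**
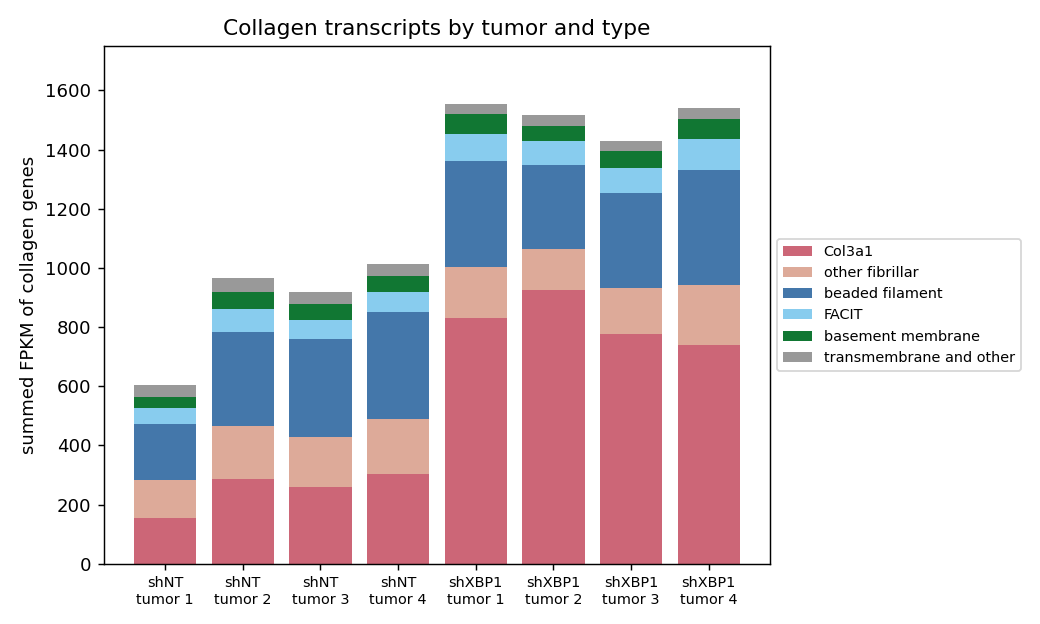
Summed FPKM of collagen genes (y axis) in each of the 8 tumors (x axis), as bars stacked by class with Col3a1 set apart from the other fibrillar genes. With Col3a1 the shXBP1 tumors reach 1430 to 1554 FPKM against 605 to 1012 FPKM in shNT, and without it the groups overlap.

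Ratios between chains that share a trimer were taken as descriptions, with no test. The ratio of Col1a1 to Col1a2 FPKM was 0.204, 0.250, 0.328 and 0.276 across the shNT tumors against 0.356, 0.241, 0.279 and 0.436 across the shXBP1 tumors, with overlapping groups. The ratio of Col6a1 to Col6a2 was 1.76, 1.54, 1.46 and 1.55 in shNT and 1.49, 1.49, 1.46 and 1.48 in shXBP1. The ratio of Col4a1 to Col4a2 was 0.863, 0.777, 0.825 and 0.832 in shNT and 0.908, 1.14, 1.01 and 0.821 in shXBP1. Col5a1 to Col5a2 was 1.5 to 2.0 in shNT and 1.22 to 1.71 in shXBP1, and Col6a3 to Col6a1 was 0.459 to 0.832 and 0.545 to 0.695. All 5 of these ratios overlapped between the groups. The ratio of Col3a1 to Col1a2, added after the values were seen, was 2.30, 3.44, 3.28 and 3.45 in shNT and 12.5, 16.1, 12.2 and 9.54 in shXBP1. That of Col3a1 to Col1a1, also added then, was 9.98 to 13.8 and 21.9 to 66.8. For these 2 the groups lay apart, and every shXBP1 tumor held more Col3a1 RNA per type I chain than any shNT tumor.

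**Figure D4:**
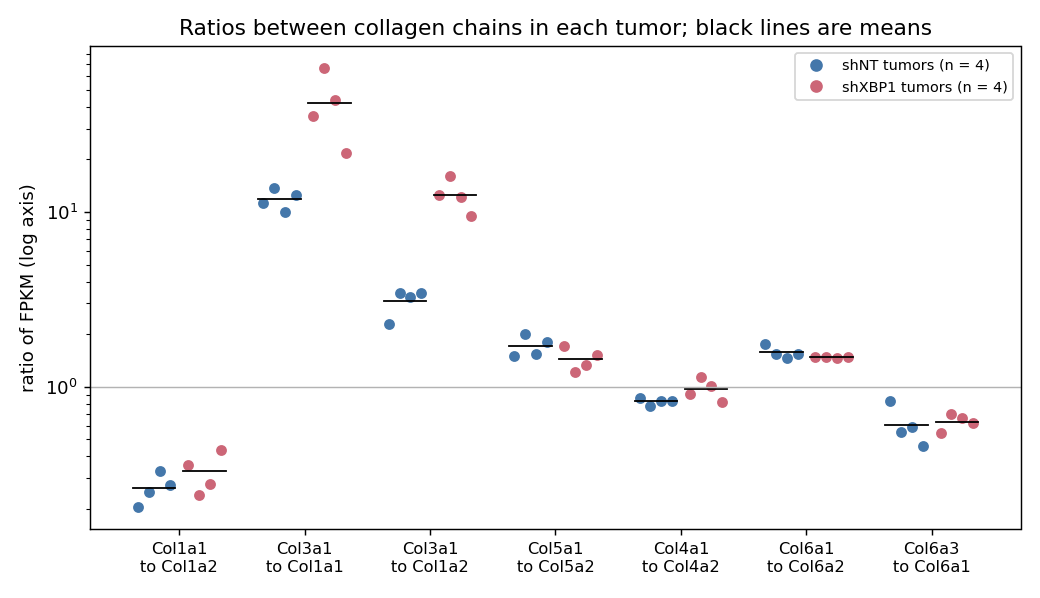
Ratios of FPKM between collagen chains (y axis, log scale) for each pair (x axis); each point is 1 of the 8 tumors, coloured by group. The Col3a1 to Col1a1 and Col3a1 to Col1a2 points of the groups lie apart (2.30 to 3.45 against 9.54 to 16.1 for Col3a1 to Col1a2), and the points of the other 5 pairs overlap.

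Some members are neighbours in the genome. Col3a1 and Col5a2 lie tail to tail on chromosome 1, with 24614 bases between them, and both rose. Col6a1 and Col6a2 lie on the same strand of chromosome 10, 85161 bases apart, and neither passed. Col4a4 and Col4a3 lie head to head on chromosome 1, 71 bases apart, and of these Col4a4 fell and Col4a3 was too low to test.

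Genes whose products modify, process, bind or cleave collagen were counted from 5 lists, of which 47 of 55 members were tested. Of these 15 rose and 4 fell (40.4% called, against 30.0% of all tested genes, with a median log2 fold change of 0.19). The lists were chosen with earlier results of these data known, so the shares are descriptions and no test. Of 20 tested genes for chain modification and folding, 3 rose and 2 fell (25.0% called), with a median of 0.02. Plod2, the lysyl hydroxylase of the chain ends, stood at 23.4, 24.6, 26.6 and 18.4 FPKM in the shNT tumors (1 to 4) against 13.9, 13.9, 13.2 and 13.4 FPKM in the shXBP1 tumors (1 to 4). The groups did not overlap and the gene fell (log2 fold change -0.77, SE 0.10, adjusted p = 0.000239). The other lysyl hydroxylases rose: Plod1, which acts within the helix, had a log2 fold change of 0.28 (SE 0.07, adjusted p = 0.0123). Plod3, which also adds sugar to hydroxylysine, had 0.32 (SE 0.08, adjusted p = 0.0107). P4ha3, a catalytic subunit of prolyl 4-hydroxylase, rose (log2 fold change 0.38, SE 0.11, adjusted p = 0.0175), and Fkbp10, an endoplasmic reticulum chaperone of procollagen, fell (log2 fold change -0.37, SE 0.11, adjusted p = 0.0198). Serpinh1, the collagen chaperone HSP47, lay at 384 to 465 FPKM in shNT and 387 to 471 FPKM in shXBP1 and did not pass (adjusted p = 0.889). Neither did the prolyl 4-hydroxylase subunits P4ha1 and P4hb, with log2 fold changes of 0.04 and -0.14 (adjusted p of 0.786 and 0.183).

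Of 5 tested genes for propeptide removal, 2 rose, so 40.0% were called against 30.0% of all tested genes. None fell with edgeR, DESeq2, voom or at an unadjusted p below 0.05. Pcolce, the enhancer of C-propeptide cleavage, lay at 170.0 to 221 FPKM in shNT and 235 to 292 FPKM in shXBP1 and rose (log2 fold change 0.36, SE 0.10, adjusted p = 0.0162), as did its relative Pcolce2 (log2 fold change 0.54, adjusted p = 0.00561). Bmp1, the protease itself, did not pass (log2 fold change 0.23, SE 0.10, adjusted p = 0.115), nor did the N-propeptide proteases Adamts2 (0.153) and Adamts14 (0.962). Of 6 cross-linking genes, 4 rose and 1 fell (83.3% called, against 30.0% of all tested genes). Loxl2, a lysyl oxidase-like enzyme, stood at 7.39, 8.38, 6.42 and 6.90 FPKM in the shNT tumors (1 to 4) against 11.3, 10.8, 11.99 and 12.2 FPKM in the shXBP1 tumors (1 to 4). It rose without overlap (log2 fold change 0.67, SE 0.08, adjusted p = 0.00015), as did Tgm2, a transglutaminase (log2 fold change 0.62, SE 0.08, adjusted p = 0.000167), and the lysyl oxidase relatives Loxl1 and Loxl3 (log2 fold changes 0.50 and 0.33, adjusted p of 0.00773 and 0.00609). Loxl4 fell (log2 fold change -0.34, SE 0.10, adjusted p = 0.0263) and Lox did not pass (log2 fold change -0.11, SE 0.20, adjusted p = 0.729).

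Of 8 tested collagen receptor genes 3 rose, so 37.5% were called against 30.0% of all tested genes. None fell with edgeR, DESeq2, voom or at an unadjusted p below 0.05. Itga1, the alpha chain of an integrin that binds type IV collagen, stood at 0.746, 0.759, 1.005 and 0.963 FPKM in the shNT tumors (1 to 4) against 2.43, 2.37, 2.49 and 2.43 FPKM in the shXBP1 tumors (1 to 4). The groups lay far apart and the rise was 2.79-fold (log2 fold change 1.48, SE 0.12, adjusted p = 1.23e-05). Itga10, another collagen-binding integrin chain, rose (log2 fold change 0.81, SE 0.22, adjusted p = 0.0143), as did Lair1, an inhibitory collagen receptor of leukocytes (log2 fold change 0.90, SE 0.26, adjusted p = 0.0269). The collagen-binding kinases Ddr1 and Ddr2 and the endocytic receptor Mrc2 did not pass, with adjusted p of 0.351, 0.594 and 0.153. Of 8 tested cleavage genes 3 rose and 1 fell (50.0% called, against 30.0% of all tested genes). Mmp14, the membrane-bound collagenase, stood at 60.6, 68.4, 69.3 and 73.4 FPKM in the shNT tumors (1 to 4) against 103, 83.9, 86.7 and 113 FPKM in the shXBP1 tumors (1 to 4). It rose without overlap (log2 fold change 0.51, SE 0.10, adjusted p = 0.00191), as did the gelatinase Mmp2 (log2 fold change 0.48, SE 0.11, adjusted p = 0.00577). Mmp8, the neutrophil collagenase, rose from a low level (log2 fold change 1.01, SE 0.30, adjusted p = 0.0238), Mmp13 fell (log2 fold change -0.62, SE 0.20, adjusted p = 0.0419) and the lysosomal protease Ctsl did not pass (0.168).

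Several of these calls changed when 1 tumor was left out, while the log2 fold changes kept their sign. That of Loxl4 lay between -0.438 and -0.266, and that of Fkbp10 between -0.426 and -0.274. Fkbp10 missed the threshold without shNT tumor 2 or 3 or shXBP1 tumor 3 (adjusted p of 0.0619, 0.0546 and 0.0558), and Pcolce without shXBP1 tumor 1 (0.0525). Loxl4 missed it without any 1 of 6 tumors, all but shNT tumor 4 and shXBP1 tumor 4 (0.0640 to 0.0777). Lair1 missed it without any 1 of the shNT tumors or of shXBP1 tumors 2 and 3 (0.0504 to 0.0715). Mmp8 missed it without shNT tumor 2 or 3 or shXBP1 tumor 1 (0.0560, 0.0635 and 0.0677). Mmp13 missed it when shNT tumors 1 or 4, or any of shXBP1 tumors 1 to 3, were left out (0.0896 to 0.114), with voom (0.0597) and with upper quartile factors (0.0507). Bmp1 passed without shNT tumor 4 (0.0449).

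**Figure D5:**
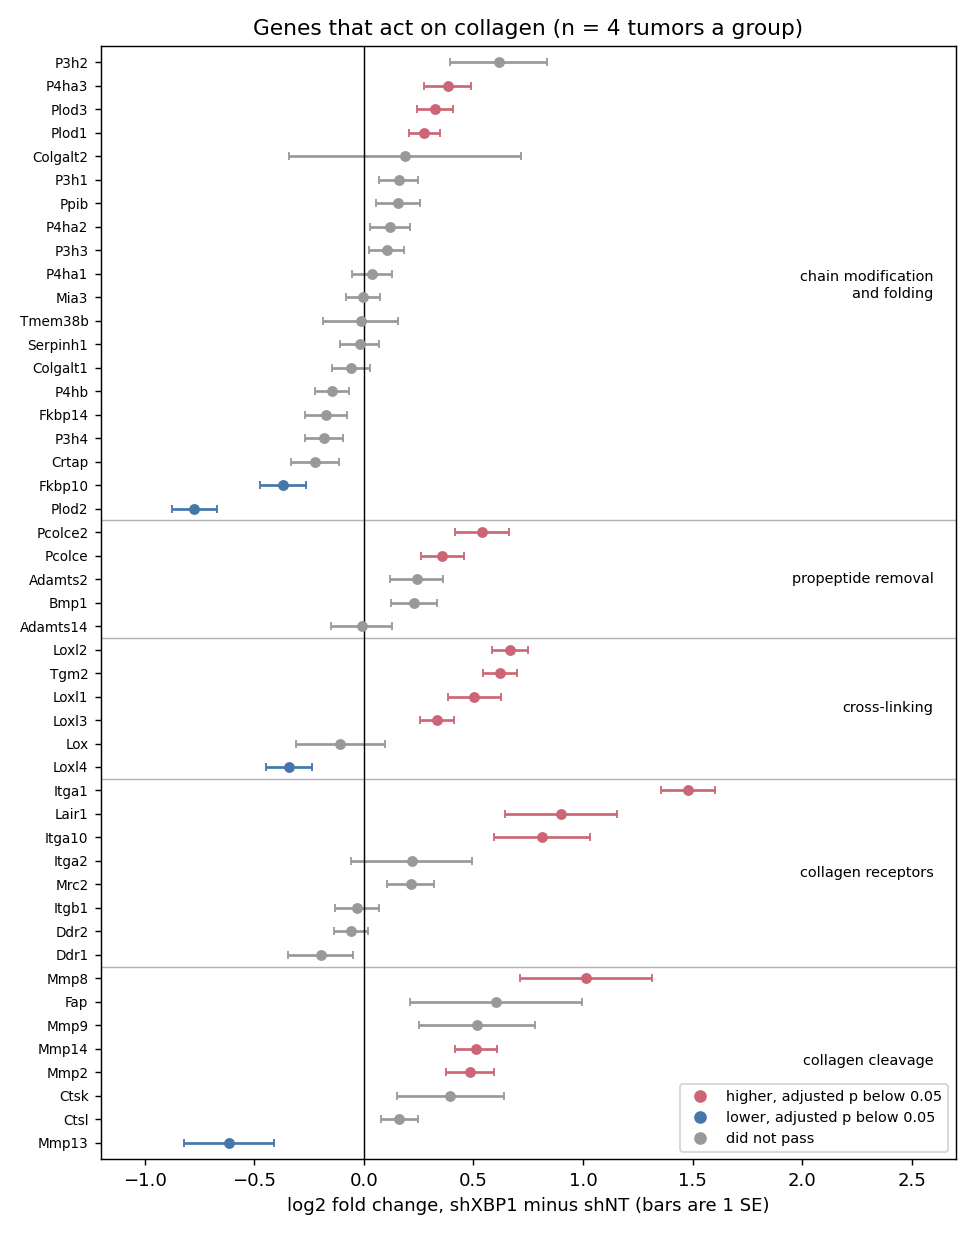
Log2 fold change (x axis, shXBP1 minus shNT) of the 47 tested genes that modify, process, cross-link, bind or cleave collagen, grouped by list on the y axis; points are edgeR estimates from 4 tumors a group and bars are 1 SE. Itga1 lies highest among those drawn at 1.48 and Plod2 lowest at -0.77, and Serpinh1, P4ha1, P4hb, Bmp1, Lox, Ddr2 and Mrc2 are among those that did not pass.

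Markers of other cell types moved with the groups as well. Their RNA was not assigned to host or injected cells, and their part in the collagen results was not tested. The fibroblast marker that fell was Postn, a matrix protein of activated fibroblasts (log2 fold change -0.77, SE 0.23, adjusted p = 0.0333). The fall of Postn missed the threshold when shNT tumors 1, 3 or 4, or shXBP1 tumors 1 or 2, were left out (0.0543 to 0.0859). Pdgfrb, a receptor of fibroblasts and pericytes, rose (log2 fold change 0.75, SE 0.18, adjusted p = 0.0107). Pecam1, an adhesion protein of endothelium, had a log2 fold change of 1.36 (adjusted p = 2.18e-05). The smooth muscle and pericyte list summed to 177 to 188 and 243 to 266 CPM. Of 7 tested 1 rose (14.3% called, against 30.0% of all tested genes). It was the smooth muscle actin Acta2, from a mean of 44.7 CPM in shNT to 124 CPM in shXBP1. Cspg4, the most abundant member in shNT, had means of 97.0 and 81.4 CPM and did not pass (log2 fold change -0.25, SE 0.11, adjusted p = 0.096). It was the 1 member lower at an unadjusted p below 0.05, and none was lower with DESeq2 or limma voom. The leukocyte list summed to 517 to 665 and 1047 to 1613 CPM, all 8 rose, and Ptprc, the pan-leukocyte phosphatase, had a log2 fold change of 1.45 (adjusted p = 0.00128).

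Further lists covered tissues that lie near a subcutaneous tumor. For the counts that follow, 30.0% of all tested genes were called. The epidermal list summed to 148 to 210.3 CPM in shNT and 50.1 to 56.9 CPM in shXBP1, nearly all of it Krt14, which fell (log2 fold change -1.83, SE 0.11, adjusted p = 2.04e-06). Krt10, also tested, did not pass (log2 fold change 0.09, SE 0.27, adjusted p = 0.835). Krt5, Trp63, Dsg1a, Krt1 and Lor were too low to test and had higher means in shXBP1. Krt5 had means of 0.0234 CPM in shNT and 1.12 CPM in shXBP1, with 37, 96, 0 and 8 counts in shXBP1 tumors 1 to 4. Trp63 had 7, 38, 6 and 23 counts there. Krt1 and Lor had counts in shXBP1 tumor 2 alone, and so had Dsg1a among the shXBP1 tumors. For each of these genes shXBP1 tumor 2 was the highest. The lower sum was thus that of Krt14 and not of the list. The adipocyte list summed to 11.2 to 17.1 and 23.1 to 31.0 CPM, with Pck1 at 0 in all tumors. Most of the sum was Fabp4, with means of 13.2 and 25.2 CPM, the 1 of 3 tested that rose. Plin1, a lipid droplet coat protein, had means of 0.562 and 0.146 CPM and did not pass (log2 fold change -1.86, SE 0.81, adjusted p = 0.105), and 1 member was lower at an unadjusted p below 0.05, 1 with limma voom and none with DESeq2. The skeletal muscle list summed to 14.7 to 45.1 and 18.9 to 87.1 CPM with none of 8 past the edgeR test, 2 higher at an unadjusted p below 0.05, and 1 with DESeq2. The cartilage and bone list summed to 142 to 187 and 115 to 158 CPM, nearly all of it Sox9, which did not pass (log2 fold change -0.29, SE 0.11, adjusted p = 0.0688), with Acan and Ibsp at 0.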

How the data were processed

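RNA-seq was done on 8 whole tumors, 4 per genotype label. Per the file headers, the deposited table gives raw counts and FPKM per tumor with an adjusted p and a log2 fold change from the authors' DESeq2 comparison. The counts were deposited as whole numbers without normalization. FPKM, which corrects for length and depth, was computed by the authors, per the file headers. Per the submitters' processing notes, reads were placed on GRCm38. No source used here names the aligner, the counter or the strand setting.

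Counts were filtered with filterByExpr, scaled by TMM (factors 0.98 to 1.04) and tested with edgeR 4.0.16 in R 4.3.3 (quasi-likelihood, robust, two-sided, no covariate) with Benjamini-Hochberg adjustment over 14907 genes and a threshold of 0.05. The SE was taken as the log2 fold change divided by the root of F. FPKM served for levels, sums and ratios only. Genes with few counts over all tumors could not be tested at these depths.

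The collagen family and all lists were chosen with earlier results of these data known. Within the family the members follow from the naming rule, which used no measured value. Values by tumor are given for collagen genes past the threshold or with a mean of at least 10 FPKM; of each pathway list, up to 5 genes with the smallest p and Serpinh1, P4ha1, P4hb, Plod2, Bmp1, Pcolce, Lox, Ddr2, Mrc2 and Mmp14; of the cell lists, Pdgfrb, Pecam1 and Ptprc. One of the cell lists is not reported here. Other genes were named after their values were seen. Alternatives were DESeq2 1.42.0, limma voom (limma 3.58.1), other size factors, no filter or 10 CPM in 4 libraries, the tumor number as a block, log2 CPM of Ptprc (prior count 2) as a covariate, a threshold of 0.01 and leaving out each tumor. The fit was tested on simulated counts. No pair of tumors of a group agreed within sampling noise (lowest chi-square per degree of freedom 16.3).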

Additional observations from a re-analysis of the deposited data

Results flagged for a closer look

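Among 136 groups of 4 tumors, for 68 named genes, 7 held a tumor far from the other 3 of its group, its gap to the nearest, as a part of the group's range, being above Dixon's critical value. Chance alone gives such a gap in about 5% of groups, so this number is near the level of chance. Among the collagen genes, Col14a1 was at 6.13 CPM in shNT tumor 3 among shNT values of 5.74, 5.71, 6.13 and 5.77 CPM in tumors 1 to 4. Col24a1 was at 0.882 CPM in shNT tumor 1 among shNT values of 0.882, 0, 0 and 0.125 CPM, and did not pass the test between groups. Among the cross-linking genes, Lox was at 15.5 CPM in shXBP1 tumor 4 among shXBP1 values of 8.54, 9.71, 9.62 and 15.5 CPM. Loxl3 was at 79.1 CPM in shNT tumor 4 among shNT values of 70.6, 71.3, 69.8 and 79.1 CPM, and Tgm2 at 514 CPM in shXBP1 tumor 1 among shXBP1 values of 514, 453, 456 and 461 CPM. Among the cell markers, Krt14 was at 52.8 CPM in shXBP1 tumor 4 among 48.1, 48.0, 48.6 and 52.8 CPM, and Postn at 85.4 CPM in shNT tumor 2 among 124, 85.4, 129 and 123 CPM.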

How the results depend on the processing

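Collagen genes higher numbered 8 and lower 2. Leaving out 1 tumor gave 6 to 8 higher and 1 to 4 lower, with 4 lower without shNT tumor 1 or shXBP1 tumor 4 and 1 lower without shNT tumor 2. Of all genes 22.6 to 35.1% were called in these fits, against 30.0% with no tumor left out. DESeq2 called 10 higher and 5 lower of 32 collagens, with 33.6% of all genes called. The filter of 10 CPM left 18 collagens, 7 higher and 1 lower, with 31.6% of all genes called. At a threshold of 0.01 there were 5 higher and 1 lower collagens, 8 higher and 1 lower pathway genes, and 1644 higher and 879 lower genes in all. For pathway genes, 15 higher and 4 lower, leaving out 1 tumor gave 13 to 16 higher and 1 to 4 lower, with 2 lower without shNT tumor 1, 2 or 3 or shXBP1 tumor 2 and 1 lower without shXBP1 tumor 3. Over all genes, 1958 lower became 1303 to 2401, lowest without shNT tumor 3.

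Ptprc itself differed between the groups (42.6 to 66.5 and 94.8 to 193 CPM), and with its log2 CPM as a covariate 134 genes were higher and 106 lower, 3 and 1 pathway genes and 0 and 0 collagens. Of all genes 1.61% were called in that fit. At an unadjusted p under 0.05 edgeR then had 7 higher and 0 lower collagens. The share of all genes at this unadjusted threshold was not taken, so that count is no result about the collagens. Col3a1 had a log2 fold change of 1.43 (adjusted p = 0.219) in the same fit. Under this covariate the log2 fold change of Col4a4 turned to 0.0113, that of Fkbp10 to 0.0942, that of Lair1 to -0.75 and that of Loxl4 to 0.14, and the cause was not tested.

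With the tumor number as a replicate block 7 collagens were higher, 1 was lower and 1304 genes in all were lower. Of all genes 22.4% were called in that fit, in either direction. Col14a1, Col4a4, Pcolce, Loxl4, Lair1 and Postn lost their calls there (adjusted p of 0.0661, 0.0522, 0.0549, 0.0579, 0.0647 and 0.0629). Same-numbered tumors did not deviate together (correlations -0.141 to -0.0247), and no same-numbered pair was the best match of both its tumors. Whether they share more than a number, such as a day or a batch, cannot be told from these values. The difference between groups in the log2 of each of the 7 chain ratios moved by less than 1 SD without any 1 tumor. Leaving out 1 tumor from groups this small cannot move a group mean by 1 SD, so this does not test the ratios. With CPM the difference also moved by less than 1 SD. The ratios themselves are other values in CPM, which is not per length. Col6a3 to Col6a1 had an shNT mean of 0.607 in FPKM and 1.31 in CPM.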
